A study of Mus musculus with 26 samples.

Results

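The 10 genes described here, Vps37d, Tbl2, Bcl7b, Baz1b, Fzd9, Dnajc30, Stx1a, Abhd11, Limk1 and Eif4h, lie on both sides of Mlxipl on mouse chromosome 5. Mlxipl encodes the glucose-responsive transcription factor ChREBP and is the gene that was edited in the mice studied. The 10 genes were taken by name: every array probe carrying one of these gene names was used, whatever its values, which gave 16 probes of 38832 tested and 10 genes of 25407. Each member had 1 to 3 probes, and all 16 were well above background on all 26 arrays. RNA of subcutaneous inguinal white adipose tissue from male C57BL6/J mice was measured on 26 one-colour arrays, 1 array per mouse. Total ChREBP KO mice (n = 7), which are Mlxipl-null and lack both ChREBPα and ChREBPβ, were set against the WT mice of the same line (n = 7). ChREBPβ KO mice (n = 5), from which exon 1b of Mlxipl had been removed with Cas9 and a pair of guide RNAs, were set against their WT littermates (n = 7). Both alterations are carried in the whole body, so adipocytes and every other cell of the tissue carry them. All 26 mice were fasted for 24 hours and then given back their food for 18 hours, with 20% glucose in the drinking water; their age is not given in the sources used here.

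ChREBP activates glycolytic and lipogenic genes when glucose metabolism is high. It binds as a dimer with Mlx to the carbohydrate response element (ChoRE), a pair of E-boxes with a short spacer, and the ChREBPβ transcript starts from its own upstream promoter in Mlxipl. A gene beside an edited gene can be measured for a shift that goes with the edited allele, and the same gene can also be read against the behaviour of known ChREBP targets. In humans the matching stretch of chromosome is the one deleted in Williams-Beuren syndrome.

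In the order of genes given by RefSeq (GRCm38.p6), Vps37d adjoined Mlxipl on one side and Tbl2 adjoined it on the other, with no protein-coding gene between. Beyond Tbl2 came Bcl7b, Baz1b and Fzd9 in that order. Beyond Vps37d came Dnajc30, then Bud23, which is no member, then Stx1a and Abhd11. Limk1 and Eif4h were the farthest members, 12 and 13 protein-coding genes away from Mlxipl. The array annotation, on build mm9, placed the Vps37d probe 64.9 kb to one side of the brightest Mlxipl probe, the brightest Tbl2 probe 21.9 kb to the other side, and the Eif4h probe 518 kb away.

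The probes that carry the main results are identified here by their first 30 bases, 5′ to 3′, with the mm9 position of the whole probe. They are the single Vps37d probe (A_55_P2064074, chr5:135548824-135548883), both Tbl2 probes (A_55_P2916934, chr5:135635630-135635689, and A_52_P408553, chr5:135639313-135639372) and the brightest Mlxipl probe (A_55_P2119957, chr5:135613705-135613764).
Vps37d A_55_P2064074: tccctgtctccttagaatggaacctttttg
Tbl2 A_55_P2916934: gaaattcccagttttcttcctggtgccccc
Tbl2 A_52_P408553: aaataaaggtatgggtgagctaaaggtggt
Mlxipl A_55_P2119957: ggcatcttgcatgaatgtagatgtgtgtgt
None of these 4 probes shared a run of 20 bases, on either strand, with a probe named for another gene. Of the 16 member probes, 1 shared such a run with 1 probe of another gene, the Abhd11 probe A_51_P142187.

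The 250 bases before the annotated starts of Vps37d and Tbl2, and before the 2 annotated starts of Mlxipl, are shown because these are the promoters next to the edited site. Capitals mark the E-box CACGTG. The sequences are RefSeq's on GRCm38.p6, written in the direction of transcription, from chr5:135078267-135078516, minus strand (Vps37d), chr5:135149436-135149685, plus strand (Tbl2), chr5:135089640-135089889, plus strand (upstream start of Mlxipl, used by the ChREBPβ transcript) and chr5:135106641-135106890, plus strand (downstream start of Mlxipl).
Vps37d: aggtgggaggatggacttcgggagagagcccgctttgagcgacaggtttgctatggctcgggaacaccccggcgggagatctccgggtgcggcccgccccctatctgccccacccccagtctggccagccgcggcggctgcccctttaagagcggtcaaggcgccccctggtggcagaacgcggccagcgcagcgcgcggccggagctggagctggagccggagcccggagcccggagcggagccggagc
Tbl2: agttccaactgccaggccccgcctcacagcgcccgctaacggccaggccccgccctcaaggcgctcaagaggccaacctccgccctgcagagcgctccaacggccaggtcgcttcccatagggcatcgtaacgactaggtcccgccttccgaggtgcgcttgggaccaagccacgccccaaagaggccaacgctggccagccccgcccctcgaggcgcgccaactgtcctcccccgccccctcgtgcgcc
Mlxipl upstream start: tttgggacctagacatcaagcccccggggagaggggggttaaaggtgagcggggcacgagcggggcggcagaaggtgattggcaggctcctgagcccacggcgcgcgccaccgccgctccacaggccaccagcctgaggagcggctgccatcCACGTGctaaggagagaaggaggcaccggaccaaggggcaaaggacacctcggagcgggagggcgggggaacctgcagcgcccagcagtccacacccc
Mlxipl downstream start: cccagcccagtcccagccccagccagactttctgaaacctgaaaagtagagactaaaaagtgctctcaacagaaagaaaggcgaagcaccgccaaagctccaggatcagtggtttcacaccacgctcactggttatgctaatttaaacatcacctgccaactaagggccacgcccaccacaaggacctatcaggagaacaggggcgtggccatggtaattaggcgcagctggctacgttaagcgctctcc
The E-box stood 98 bases before the upstream Mlxipl start, and no CACGTG was present in the windows of the downstream Mlxipl start, Vps37d or Tbl2. Windows were searched from 250 bases before to 50 bases after each start, and 9 of the 10 members had at least 1 window (12 windows in all; Dnajc30 had none in the table). CACGTG, which reads the same on both strands, was found in Eif4h, Bcl7b and Fzd9, 96, 148 and 88 bases before their starts. These are 3 of the 9 members and 3 of the 12 windows. Over all 32851 promoter windows it was found in 7.15%. The full element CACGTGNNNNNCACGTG was found in 0 of the 32851 windows. With up to 3 mismatches at its 12 fixed bases it was found in 8.56% of all windows, and among the members only in Bcl7b. The closest match in the Vps37d and in the Tbl2 window each had 5 mismatches. That in the window of the upstream Mlxipl start had 3. The paper describes a ChoRE in exon 1b of Mlxipl, and sites beyond 50 bases after a start were not searched. The search therefore does not tell whether a gene has a ChREBP site.

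Mlxipl itself was lower in both KO groups at its brightest probe. The log2 intensity of that probe ranged from 13.63 to 14.00 in total ChREBP KO mice (median 13.78) and from 15.62 to 16.59 in their WT (median 15.92). The fitted change was -2.21 on the log2 scale (SE 0.13, adjusted p = 2.14e-12, limma), so that the signal was at 21.6% of the WT signal. In ChREBPβ KO mice it ranged from 13.94 to 14.38, against 15.29 to 16.18 in WT, a change of -1.54 (SE 0.14, adjusted p = 3.22e-06, limma). Neither pair of groups overlapped. The other Mlxipl probes behaved differently: A_55_P2728555 changed by -0.91 in total ChREBP KO (adjusted p = 2.29e-06, limma) and gave -0.68 in ChREBPβ KO (adjusted p = 0.0585, limma), and A_55_P2045158 gave -0.14 and 0.04, neither past the threshold. A_55_P2728555 shared runs of 20 bases with 9 probes of other genes, 7 of them through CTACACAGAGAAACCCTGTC, which belongs to the B1 family of short repeats.

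Before the members, the tissue makeup of the arrays has to be given, because it differed between groups. Adipocyte markers such as Adipoq and Plin1 were strongly detected on every array (mean log2 intensity of the 10 markers from 15.3 to 16.3 over all arrays). They also differed between groups: their mean ranged from 16.1 to 16.3 in total ChREBP KO and from 15.3 to 15.9 in WT, without overlap, and 9 of 10 were called higher in the KO, with a median of 0.54. For Cfd, 1 of the 9, the means were 18.84 (SD 4.9e-05) and 18.70 (SD 6.4e-05). These are top values set by quantile normalisation, so that call gives a change of rank and no size. In ChREBPβ KO 0 of 10 were called, and 6 of 10 were called higher in the WT mice of the ChREBPβ line than in those of the total line. Of 6 markers of thermogenic adipocytes, 3 were called lower in total ChREBP KO (Ucp1 by -6.85, Elovl3 by -3.90 and Cidea by -1.96) and 1 higher (Dio2, 1.46), 0 were called in ChREBPβ KO, and 6 of 6 were called lower in the WT mice of the ChREBPβ line than in those of the total line. Their mean ranged from 11.4 to 14.0 in total WT, the reference of every total ChREBP KO change, from 10.9 to 11.7 in total ChREBP KO, and from 9.31 to 11.5 in the ChREBPβ line. The summed level of 15 lymphocyte markers, as a mean log2 intensity, ranged from 7.75 to 11.2 in total ChREBP KO mice and from 10.8 to 12.5 in their WT, and 15 of the 15 markers were called lower in the KO. In the ChREBPβ line it ranged from 7.09 to 8.78 in KO and from 7.14 to 8.05 in WT, with 0 of 15 markers called. Skeletal muscle markers ranged from 6.38 to 13.5 in total ChREBP KO and from 6.17 to 12.1 in WT, with 3 of 12 called higher. In whole tissue, fewer cells of a type and less RNA per cell cannot be told apart. Values from a fit with the lymphocyte and muscle scores as covariates are given below for the members it touches. The lymphocyte scores of total ChREBP KO and WT mice overlapped only from 10.8 to 11.2. Genotype and marker content are therefore only partly separated in that fit. It left 14.1% of all probes past the threshold for this pair of groups, and the main fit 45.6%. Whether a call kept or lost there reflects marker content was not tested. The part of the adipocyte and thermogenic markers in the changes of Tbl2, Abhd11, Dnajc30, Vps37d and the other members was not tested.

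The members were first counted in each line, beside the share of all genes called there. In total ChREBP KO mice 6 of the 10 genes were called at their brightest probe, where 45.9% of all genes tested were called. Tbl2, Abhd11, Dnajc30 and Eif4h were higher (26.2% of all genes were called higher) and Vps37d and Limk1 were lower (19.7% of all genes). In ChREBPβ KO mice 1 of the 10 genes was called, Vps37d, which was lower, where 0.0472% of all genes (12 of 25407) were called, 0.00787% higher and 0.0394% lower. The median change of the 10 genes was 0.14 on the log2 scale in total ChREBP KO and -0.05 in ChREBPβ KO, beside 0.05 and 0.00130 over all genes. KO and WT arrays did not overlap for 4 members in total ChREBP KO (Vps37d, Tbl2, Dnajc30 and Abhd11; 14.7% of all genes) and for 1 member in ChREBPβ KO (Vps37d; 0.378% of all genes).

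**Figure D1:**
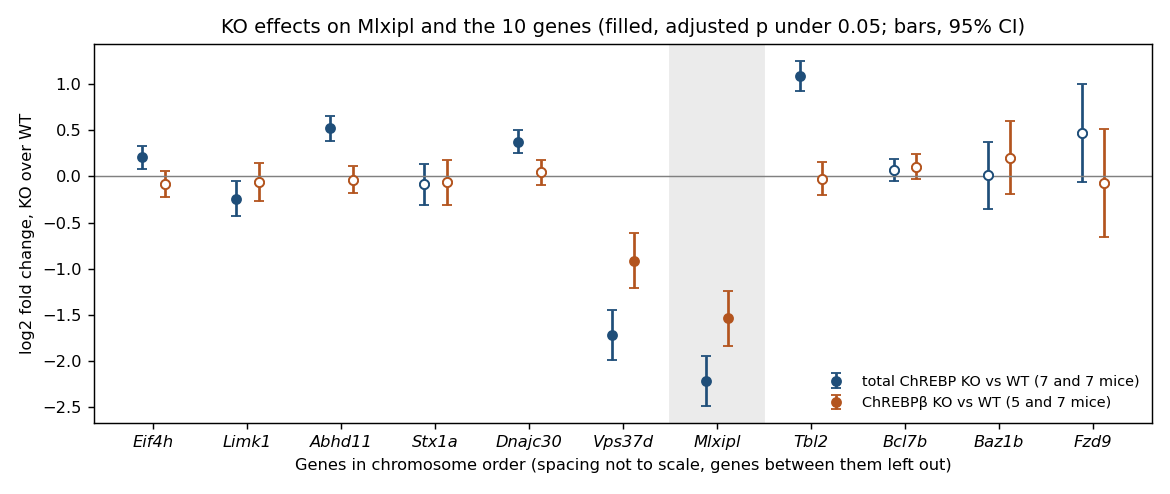
Log2 fold change of KO over WT (y axis) for Mlxipl (shaded) and the 10 genes in chromosome order (x axis, spacing not to scale); points are the brightest probe of each gene in total ChREBP KO (blue) and ChREBPβ KO (orange), bars are 95% confidence intervals from limma, and filled points have an adjusted p under 0.05. Vps37d fell with Mlxipl in both lines, at -1.72 and -0.91, while Tbl2 on the other side stood at 1.09 in total ChREBP KO and at -0.02 in ChREBPβ KO.

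Vps37d encodes a subunit of ESCRT-I, the complex that sorts ubiquitinated membrane proteins on endosomes. Its log2 intensity in total ChREBP KO mice ranged from 7.01 to 7.71 (median 7.41), and in their WT from 8.85 to 9.68 (median 9.06). All 7 KO arrays lay below all 7 WT arrays. The change was -1.72 on the log2 scale (SE 0.13, 95% confidence interval -1.99 to -1.45, adjusted p = 1.81e-10, limma), which is 30.4% of the WT signal. The fall was present in each of the 4 wash batches, between -2.17 and -1.32. With the lymphocyte and muscle scores as covariates it was -1.83 (adjusted p = 4.89e-07, limma).

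In ChREBPβ KO mice the 5 values of Vps37d were 7.71, 7.83, 7.86, 7.90 and 7.91, and the 7 WT values ranged from 8.28 to 9.05 with a median of 8.89. The 5 KO arrays formed a tight set (SD 0.08) below every WT array (SD 0.31). The change was -0.91 (SE 0.14, 95% confidence interval -1.21 to -0.62, adjusted p = 0.0101, limma), which is 53.2% of the WT signal. Within the 3 wash batches that held both groups it was between -1.22 and -0.41. The call was lost in 4 of 25 alternatives. It was lost when the arrays of the ChREBPβ line were fitted alone (-0.91, adjusted p = 0.119, limma) and with the slide as a fixed block (-0.96, adjusted p = 0.623, limma). It was also lost without ChREBPβ KO replicate 6 (adjusted p = 0.0553, limma) and with replicate numbers as a block. Of all 38832 probes, 14 were called in the main fit and 2, 0, 2 and 5 in these settings, in the order given. With the lymphocyte and muscle scores as covariates the change was -0.90 (adjusted p = 0.0187, limma).

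The fall of Vps37d was larger in total ChREBP KO than in ChREBPβ KO, by 0.81 on the log2 scale (SE 0.19, adjusted p = 0.00434, limma, interaction term), a call that was lost in 1 of 12 alternatives, with the slide as a fixed block (0.60, adjusted p = 0.236, limma). Mlxipl showed a difference of the same sign, 0.67 (SE 0.20, adjusted p = 0.0154, limma). Between the WT groups Mlxipl differed by -0.33 (ChREBPβ line minus total line, SE 0.13, adjusted p = 0.0465, limma). Each allele was carried by 1 line, so allele and line cannot be told apart in the differences between KO effects. Among all 25407 genes ordered from the largest fall, Vps37d stood at place 387 in total ChREBP KO and at place 73 in ChREBPβ KO. It was 1 of 10 genes (0.0394% of those tested) that were called lower in ChREBPβ KO, and all 10 were also called lower in total ChREBP KO. The 4 group means followed the order total WT (9.13 ± 0.28), ChREBPβ WT (8.75 ± 0.31), ChREBPβ KO (7.84 ± 0.08) and total KO (7.41 ± 0.24), given as mean log2 intensity ± SD with n = 7, 7, 5 and 7. The WT groups differed by -0.38 (ChREBPβ line minus total line, SE 0.13, adjusted p = 0.0205, limma), although their arrays overlapped; the difference between both KO groups was not tested.

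**Figure D2:**
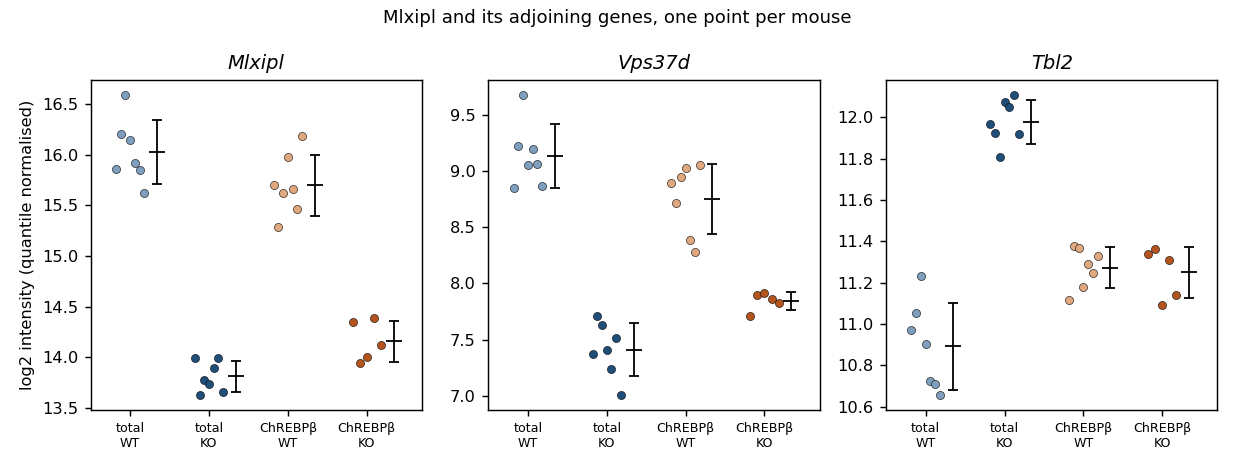
Log2 intensity (y axis, quantile normalised, brightest probe) of Mlxipl, Vps37d and Tbl2 in the 4 groups; each point is 1 mouse and the bar beside it is the mean with SD. Vps37d separates KO from WT in both lines as Mlxipl does, whereas Tbl2 sets the 7 total ChREBP KO mice above the other 19 mice.

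Tbl2, the neighbour on the other side of Mlxipl, encodes a membrane protein of the endoplasmic reticulum with WD repeats. At its brightest probe, the total ChREBP KO arrays ranged from 11.81 to 12.11 (median 11.97) and their WT arrays from 10.66 to 11.23 (median 10.90). Every KO array lay above every WT array. The change was 1.09 on the log2 scale (SE 0.08, adjusted p = 6.60e-11, limma), which is 212% of the WT signal, and it lay between 0.65 and 1.40 in the 4 wash batches. The second probe of Tbl2 gave 0.99 (SE 0.08, adjusted p = 4.53e-10, limma). With the lymphocyte and muscle scores as covariates the rise at the brightest probe was 0.96 (adjusted p = 1.56e-06, limma). By size of rise, Tbl2 stood at place 492 of 25407 genes.

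In the ChREBPβ line Tbl2 was not called. The 5 KO values at the brightest probe were 11.09, 11.14, 11.31, 11.34 and 11.37, and the WT values ranged from 11.12 to 11.38, so the groups overlapped. The change was -0.02, with a 95% confidence interval of -0.20 to 0.15 (adjusted p = 0.989, limma). The KO effects in the 2 lines differed by -1.11 (SE 0.12, adjusted p = 2.97e-07, limma). The second probe gave 0.09 in ChREBPβ KO (95% confidence interval -0.09 to 0.27) and a difference of -0.90 between the lines (adjusted p = 8.36e-06, limma). At that probe the KO means were close, 7.64 in total ChREBP KO and 7.66 in ChREBPβ KO. Their WT means were 6.65 and 7.57.

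The Tbl2 probes differed in where the ChREBPβ line stood. The WT mice of the ChREBPβ line were above the WT mice of the total line by 0.38 at the brightest probe (SE 0.08, adjusted p = 0.000295, limma) and by 0.92 at the second (SE 0.08, adjusted p = 6.60e-09, limma). This comparison and that of total ChREBP KO with WT share the 7 total WT arrays. At the second probe these 7 arrays ranged from 6.38 to 6.85, and all other arrays lay above them: total ChREBP KO from 7.41 to 7.80, ChREBPβ WT from 7.39 to 7.80 and ChREBPβ KO from 7.56 to 7.84. So at that probe the total WT group stood apart from the other groups, while at the brightest probe the total ChREBP KO group did. With the lymphocyte and muscle scores as covariates the difference between the WT groups at the brightest probe was 0.13 (adjusted p = 0.693, limma). In that fit 3.28% of all probes were called between the WT groups. The lymphocyte score did not overlap between these groups, so line and marker content cannot be told apart there.

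Both genes for mitochondrial proteins among the members lie on the Vps37d side. Abhd11, a serine hydrolase of the mitochondrial matrix, ranged from 12.69 to 12.94 in total ChREBP KO (median 12.83) and from 12.14 to 12.44 in WT (median 12.34). The groups did not overlap, and the change was 0.52 (SE 0.07, adjusted p = 5.91e-07, limma); the other Abhd11 probe also gave 0.52 (adjusted p = 5.02e-06, limma). Dnajc30, a mitochondrial J-domain protein, ranged from 11.92 to 12.16 in KO (median 12.03) and from 11.55 to 11.87 in WT (median 11.64). Its change was 0.38 (SE 0.06, adjusted p = 2.24e-05, limma). Both genes stayed higher with the marker scores as covariates, at 0.53 (adjusted p = 0.000333, limma) and 0.34 (adjusted p = 0.00642, limma).

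Neither gene was called in ChREBPβ KO. The changes were -0.04 for Abhd11 (95% confidence interval -0.18 to 0.11) and 0.04 for Dnajc30 (95% confidence interval -0.09 to 0.18). The effects of both alleles differed by -0.56 for Abhd11 (adjusted p = 0.000224, limma) and by -0.33 for Dnajc30 (adjusted p = 0.0104, limma), and the latter was no longer past the threshold with the marker scores as covariates (-0.29, adjusted p = 0.125, limma). The difference between the alleles was called for 5 of the 10 members, where 23.1% of all genes were called. It was positive for Vps37d (9.94% of all genes were called positive) and negative for Tbl2, Abhd11, Dnajc30 and Eif4h (13.1% negative).

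The changes of the 2 farthest members in total ChREBP KO were small. Eif4h, a cofactor of the RNA helicase of translation initiation, ranged from 14.37 to 14.72 in KO and from 14.18 to 14.45 in WT, and the groups overlapped. It was higher by 0.21 (SE 0.06, adjusted p = 0.00611, limma), a call that was lost with the marker scores as covariates (0.17, adjusted p = 0.219, limma) and in the deposited normalised table (0.12, adjusted p = 0.0861, limma). Its KO effect differed between the lines by -0.29 (adjusted p = 0.0209, limma). That call was lost in 4 of 12 alternatives, among them the deposited table (-0.21, adjusted p = 0.0747, limma) and the covariates (-0.25, adjusted p = 0.235, limma). Limk1, the kinase that phosphorylates the actin-severing protein cofilin, ranged from 12.19 to 12.73 in KO and from 12.47 to 12.78 in WT. It changed by -0.24 at the brightest probe (SE 0.09, adjusted p = 0.0348, limma), which was lost with the marker scores as covariates (-0.10, adjusted p = 0.651, limma) and with 75th percentile scaling (-0.13, adjusted p = 0.185, limma). The second Limk1 probe gave -0.05 (95% confidence interval -0.26 to 0.15). With the covariates far fewer probes passed the threshold over the whole array, as given above. The losses of Eif4h and Limk1 in that fit are therefore not specific to these genes.

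Of the remaining members, the chromatin genes on the Tbl2 side were mostly not called. Bcl7b, a subunit of SWI/SNF remodelling complexes, gave 0.07 at its brightest probe in total ChREBP KO (adjusted p = 0.338, limma). Its other probes gave 0.11 and 0.27, and only the latter was called (A_51_P505412, adjusted p = 0.0184, limma). The brightest probe passed the threshold under both scalings to the 75th percentile (0.18 and 0.17). Baz1b, a subunit of the WICH remodelling complex, gave 0.01 and -0.09 at its 2 probes, and its brightest probe spread from 9.20 to 10.48 in KO and from 9.15 to 10.01 in WT. In ChREBPβ KO the same probes gave 0.11, -0.11 and 0.22 for Bcl7b and 0.20 and -0.18 for Baz1b, with adjusted p of 0.601 and above by limma.

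Neither of the last 2 members was called in either line. Fzd9, a Wnt receptor, ranged from 4.98 to 7.38 in total ChREBP KO and from 5.05 to 5.67 in WT, and its change of 0.47 was not called (95% confidence interval -0.06 to 1.00, adjusted p = 0.142, limma). A single KO array at 7.38 made that range wide, and in ChREBPβ KO a single array at 6.48 stood above the other 4 (4.95 to 5.23). Stx1a, a plasma membrane SNARE of regulated exocytosis, ranged from 6.36 to 6.79 in total ChREBP KO and from 6.37 to 7.06 in WT. Its changes were -0.09 in total ChREBP KO (95% confidence interval -0.31 to 0.14) and -0.07 in ChREBPβ KO (95% confidence interval -0.31 to 0.18).

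**Figure D3:**
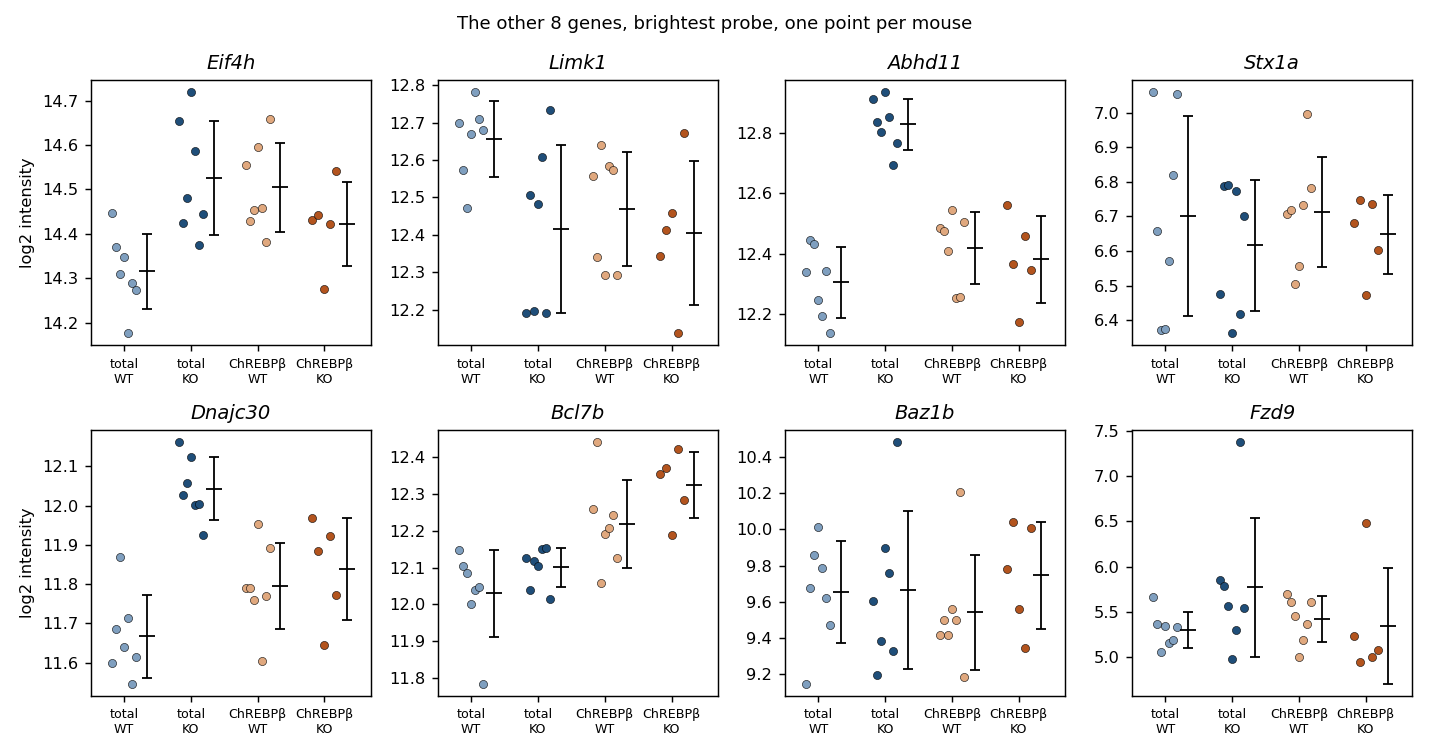
Log2 intensity (y axis, brightest probe; each panel has its own scale, which does not start at 0) of the other 8 genes in the 4 groups; each point is 1 mouse and the bar is the mean with SD. Abhd11 and Dnajc30 separate total ChREBP KO (lowest values 12.69 and 11.92) from its WT (highest values 12.44 and 11.87), and no gene here separates ChREBPβ KO from WT.

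Without any edit, the WT mice of the 2 lines differed at 4 of the 10 members, where 45.6% of all genes were called. Vps37d was lower in the ChREBPβ line, as given above. Tbl2 (0.38), Bcl7b (0.19, adjusted p = 0.0105, limma) and Eif4h (0.19, adjusted p = 0.0129, limma) were higher. With the marker scores as covariates 0 of the 10 members were called in this comparison. In that fit 3.28% of all probes were called, against 45.2% in the main fit. The lymphocyte score did not overlap between the WT groups (7.14 to 8.05 and 10.8 to 12.5). Line and marker content therefore cannot be told apart there.

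The level of Vps37d was compared with that of Mlxipl among mice of the same group, in the 3 groups with at least 6 arrays. In total WT mice the Pearson r was 0.895 (exact permutation p = 0.0131, adjusted p = 0.0393 over 3 groups, n = 7) and Spearman's rho was 0.75 (exact permutation p = 0.0663, adjusted 0.0994). Without the 2 arrays farthest from the median Mlxipl level r was 0.511 (exact permutation p = 0.267, 5 arrays), so the relation no longer passed the test without them. In ChREBPβ WT mice r was 0.619 (exact permutation p = 0.123, adjusted p = 0.185) and rho 0.75 (exact permutation p = 0.0663, adjusted 0.0994), and r was 0.706 without the 2 farthest arrays. In total ChREBP KO mice r was -0.0127 (exact permutation p = 0.978) and rho -0.143 (exact permutation p = 0.783), and r was -0.158 without the 2 farthest. The wash batches held at most 3 arrays of a group, too few for a correlation within a batch.

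**Figure D4:**
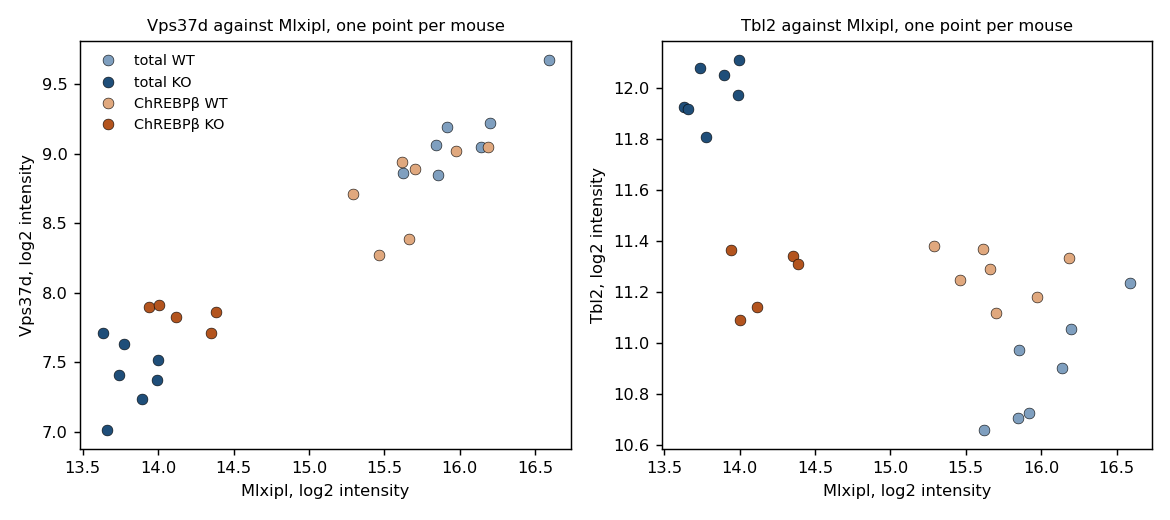
Log2 intensity of Vps37d (left, y axis) and Tbl2 (right, y axis) against that of Mlxipl (x axis), all at the brightest probe; each point is 1 mouse, coloured by group. Over the 26 mice Vps37d and Mlxipl are both low in the KO groups and both high in the WT groups. Within groups r was 0.895 in total WT (0.511 without the 2 farthest arrays), 0.619 in ChREBPβ WT and -0.0127 in total ChREBP KO. It was not computed in ChREBPβ KO (n = 5). Tbl2 is highest (11.81 to 12.11) in the total ChREBP KO mice but not in the ChREBPβ KO mice, whose Mlxipl levels (13.94 to 14.38) are nearly as low.

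Patterns over all 26 arrays were set beside those of 17355 named genes, as a description in which the differences between groups carry most of the likeness. The genes with the highest Pearson r with Vps37d were Prss35 (0.966), Hk2 (0.958), Mapk8ip1 (0.957), Mlxipl (0.956) and Rnf144b (0.956). Hk2 encodes a hexokinase, the first enzyme of glycolysis. After the group means were subtracted the order changed: Pde4a (0.844), Ccno (0.819), Zfp389 (0.818), Mpst (0.797) and Khdrbs3 (0.785) led, and Mlxipl stood at place 883 (0.544). For Tbl2 the genes most alike in raw values were Dbt (0.969), Gnb5 (0.963), Bckdhb (0.962), D630024D03Rik (0.962) and Prepl (0.959), and r with Mlxipl was -0.73. Dbt and Bckdhb encode subunits of the branched-chain ketoacid dehydrogenase. Among the members themselves, with group means subtracted, the highest r was that of Dnajc30 with Abhd11 (0.718) and the lowest that of Dnajc30 with Limk1 (-0.60).

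Known ChREBP targets give the other yardstick for Vps37d. Of 19 targets tested, 14 were called lower and 1 higher in total ChREBP KO (19.7% and 26.2% of all genes), with a median change of -1.09 on the log2 scale. For Fasn, 1 of the 14 (-0.31), the WT mean was 18.84 (SD 5.9e-05). That is a top value set by quantile normalisation, so the size of its change is not reliable. The 3 largest changes were in Slc2a5 (-8.98), which encodes the fructose transporter, Fgf21 (-3.43), a secreted metabolic hormone, and Elovl6 (-3.26), a fatty acid elongase. In ChREBPβ KO 0 of the 19 were called, with a median of -0.25, and the same genes stood at -1.84, 0.05 and -0.42. Vps37d, at -1.72 and -0.91, thus had a change beyond the target median in both lines, and Tbl2, at 1.09 and -0.02, was on the opposite side of 0 from that median in total ChREBP KO.

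The other genes of the ESCRT-I complex did not fall together with Vps37d. Of 8 genes for ESCRT-I subunits and Vps37 proteins, 3 were called higher and 1 lower in total ChREBP KO (26.2% and 19.7% of all genes), with a median of 0.09. In ChREBPβ KO 0 were called, with a median of 0.04. The largest changes in total ChREBP KO were in Vps37b (-0.62), Ubap1 (0.26) and Vps37c (0.24), which in ChREBPβ KO gave 0.06, 0.02 and 0.11. Of 7 genes for Mlx and its partners, 4 were called in total ChREBP KO (45.9% of all genes), led by Mxd3 (-0.63), Mxd4 (0.56) and Max (-0.44), and 0 in ChREBPβ KO.

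The wider neighbourhood was described in the same way. Among the 53 genes with a tested probe within 1 Mb of Mlxipl, 27 (50.9%) were called in total ChREBP KO, 17 higher and 10 lower. Over all genes 45.9% were called there, 26.2% higher and 19.7% lower, so the share near Mlxipl was close to that of all genes. In ChREBPβ KO 1 of the 53 was called (1.89%, beside 0.0472% of all genes), and that was Vps37d. Of the 43 that are no members, 0 were called in ChREBPβ KO, and their changes ranged from -0.44 to 0.33. The 3 largest changes in total ChREBP KO were in Vps37d, in Tmem120a (1.65, adjusted p = 2.01e-11, limma), a membrane protein gene 598 kb from Mlxipl, and in Lat2 (-1.32, adjusted p = 0.00313, limma), a leukocyte signalling adaptor. Tmem120a gave 0.08 in ChREBPβ KO. Of 15 further genes of the Williams-Beuren region, 2 were called higher and 5 lower in total ChREBP KO, beside 26.2% and 19.7% of all genes. They were led by Lat2, Ncf1 (-1.31), a subunit of the phagocyte oxidase, and Clip2 (0.58), a microtubule-binding protein. In ChREBPβ KO 0 of the 15 were called. Lat2 and Ncf1 are expressed in leukocytes. In the same KO mice 15 of 15 lymphocyte markers were called lower, and of 8 macrophage markers 2 were called lower and 0 higher. The part of these shifts in the values of Lat2 and Ncf1 was not tested.

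**Figure D5:**
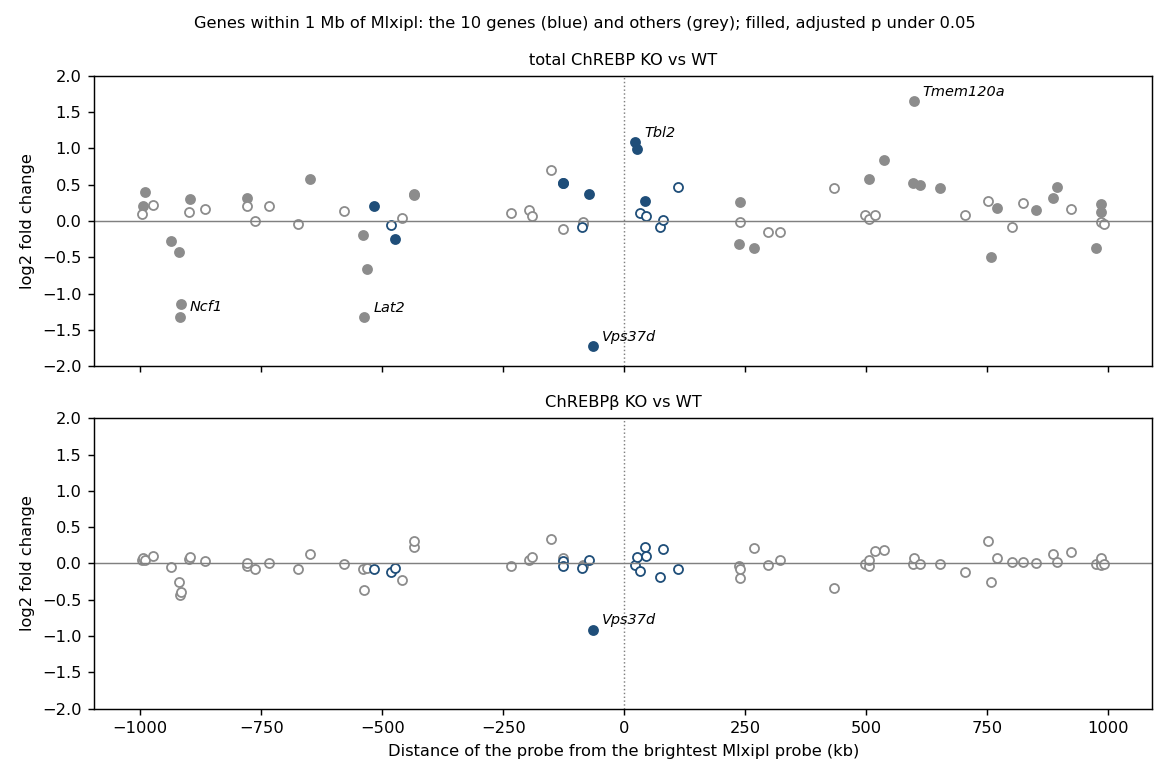
Log2 fold change of KO over WT (y axis) for each probe within 1 Mb of the brightest Mlxipl probe, against its distance in kb (x axis, mm9), in total ChREBP KO (top) and ChREBPβ KO (bottom); blue points are the 10 genes, grey points other genes, and filled points have an adjusted p under 0.05. The probes of Mlxipl itself are left out; among those drawn, Vps37d is the one filled point in ChREBPβ KO, at -0.91, and the falls and rises in total ChREBP KO are spread over the whole stretch.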

How the data were processed

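The authors extracted median pixel intensities with Agilent Feature Extraction (10.10.1.1, per the labels), kept well-measured spots and deposited these scanner intensities beside a table of quantile-normalised log2 values; here the deposited log2 table served only as an alternative. The methods were repeated on the 26 scanner files: spots well above background on 21 arrays or on 75% of a group, log2, quantile normalisation and the median of replicate spots, with no background subtraction. Outlier spots were set missing (1747). One limma model (3.58.1, R 4.3.3) with 4 group means (22 residual degrees of freedom) gave all contrasts, with Benjamini-Hochberg adjustment over 38832 probes and a threshold of 0.05. A gene was represented by its brightest probe. The 10 genes, the gene lists and the naming rule (every member; the 3 largest called changes of a list; the 5 most alike patterns) were chosen with earlier results of these data known. In simulated arrays of the ChREBPβ comparison, on 38735 probes, 100 probes were changed by 1 on the log2 scale and 100 by 0.5. Of these, 87% and 62% were recovered. In the measured ChREBPβ comparison only 14 probes were called, which makes the adjusted threshold stricter there. These rates therefore do not give the power of that comparison. Arrays had 70.2% to 76.5% of spots well above background and no saturated spot. Mice of a line shared replicate numbers, but same-numbered mice did not all deviate together, and no pairing was used. Alternatives in scaling, background, filters, probe choice, blocks, covariates and left-out arrays were run. The number of arrays limits the precision.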

Additional observations from a re-analysis of the deposited data

Results flagged for a closer look

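Of 40 sets of arrays examined (10 genes in 4 groups), 4 had a lowest or highest array far from the rest of its group, and about 1 in 20 sets would show one by chance. Fzd9 stood at 7.38 in total ChREBP KO replicate 7, with the next array at 5.85, and at 6.48 in ChREBPβ KO replicate 4, with the next at 5.23. Baz1b stood at 10.21 in ChREBPβ WT replicate 7, with the next array at 9.56. Bcl7b stood at 11.78 in total WT replicate 8; the other 6 arrays of that group lay above it.

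The KO effect differed between the 2 lines for 5 members by the interaction term of limma, given as the ChREBPβ KO effect minus the total ChREBP KO effect on the log2 scale. Each allele was carried by 1 line, so allele and line cannot be told apart in this term. The WT groups of the lines also differed at Vps37d (-0.38), Tbl2 (0.38) and Eif4h (0.19). The difference was 0.81 for Vps37d, -1.11 for Tbl2, -0.33 for Dnajc30, -0.56 for Abhd11 and -0.29 for Eif4h. For Vps37d both effects were falls, and for the other 4 the total ChREBP KO effect was a rise and the ChREBPβ KO effect was not called.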

How the results depend on the processing

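Vps37d in total ChREBP KO kept its direction and its call in all 27 alternatives (-1.85 to -1.52), and the count of members called there lay between 4 and 6. The share of all probes called there was 45.6% in the main fit. It lay between 14.1% (marker scores as covariates) and 51.2% (array weights) in the alternatives. The fall of Vps37d in ChREBPβ KO kept its direction in all 25 (-0.99 to -0.81), but its call, and with it the count of members called, went from 1 to 0 with the replicate block (-0.91, adjusted p = 0.130), with the slide as a fixed block (-0.96, adjusted p = 0.623), with the ChREBPβ arrays alone (-0.91) and without ChREBPβ KO replicate 6. Of all 38832 probes, 14 were called in the main fit of this comparison and 5, 0, 2 and 2 in these settings. With 1 array left out at a time, the counts of members called were 5 to 6 in total ChREBP KO, 0 to 1 in ChREBPβ KO, 4 to 5 for the difference of the effects and 3 to 4 between the WT groups. In the same order, the shares of all probes called were 41.3% to 48%, 0.00515% to 0.283%, 18.3% to 26.2% and 41.3% to 45.8%. In those fits Vps37d lay between -1.77 and -1.63 in total ChREBP KO and between -0.99 and -0.86 in ChREBPβ KO. The difference of the effects for Vps37d lay between 0.60 and 0.93 and lost its call with the slide as a fixed block. The count for the difference of the effects was 3 with the replicate block, 1 with the slide as a fixed block and 3 with the marker scores as covariates. Over all probes the share called was 22.4% in the main fit and 14.6%, 1.58% and 5.8% in these settings. The count between the WT groups was 2 with the slide as a fixed block and 0 with the covariates. There the share of all probes called was 45.2% in the main fit, 30.9% and 3.28%. The r of Vps37d with Mlxipl in total WT was 0.511 without the 2 farthest arrays.

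Replicate numbers paired nothing by the check used (r of same-numbered deviations from -0.33 to 0.14 over 4 pairs in the ChREBPβ line and from -0.36 to 0.51 over 6 pairs in the total line, where 2 of the 6 matched best with their own number), so the replicate block is only an alternative. It moved the number of probes called from 14 to 5 in ChREBPβ KO and from 8714 to 5665 for the difference of the effects. No called member changed sign. Values that were not called changed sign in 16 cases. In total ChREBP KO, Baz1b gave -0.037, -0.20 and -0.054 (wash batch block, slide fixed block, array weights), and Fzd9 gave -0.24 and Stx1a 0.20 with the covariates. In ChREBPβ KO, Tbl2 gave 0.10 (slide fixed block) and 0.012 (array weights), Baz1b -0.023 (wash batch block), Fzd9 0.042, 0.059 and 0.082 (75th percentile scaling, replicate block, wash batch block), Dnajc30 -0.033 (slide fixed block), Stx1a 0.014 and 0.083 (wash batch block, slide fixed block) and Limk1 0.028 and 0.038 (replicate block, slide fixed block). The cause was not tested in any of these. With 15 slides for 26 arrays, the slide as a fixed block leaves few arrays per comparison. The confidence interval of Fzd9 was the widest among the members in both KO comparisons, so small changes of that gene could not be seen with these arrays.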
